A study of Mus musculus with 12 samples.

Results

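Remodelin was compared with no Remodelin in mouse peritoneal macrophages that had been given interferon gamma (IFN-γ). Members of the comparison were the 3 libraries of the group labelled Remodelin hydrobromide,IFN y, called the combined group, and the 3 of the group labelled IFN y, so 6 of the 12 libraries of the series. Of 55586 genes in the table, 13474 passed the count filter and were tested. RNA was sequenced from cells kept in RPMI 1640 with 10% fetal bovine serum. Per the labels, Remodelin or no Remodelin came first and IFN-γ or no IFN-γ followed. The other 6 libraries, 3 labelled Remodelin hydrobromide and 3 labelled Control, give the same drug contrast without the cytokine. The labels give no dose, time, strain, age or number of animals. They do not say whether the libraries within a group stem from different cultures or mice, so every p-value reflects library-to-library spread alone, possibly technical.

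Remodelin is a small molecule used as an inhibitor of NAT10, the acetyltransferase that places N4-acetylcytidine on RNA. IFN-γ is the classical activating cytokine of macrophages: it signals through JAK kinases and IRF1 and drives antigen presentation, guanylate-binding proteins and the chemokines Cxcl9 and Cxcl10. Among the pathways described here, the integrated stress response slows translation and lets the factor ATF4 switch on genes for amino acid synthesis and transport. Sterol synthesis is governed by SREBP2, which is processed to its active form when membranes are short of cholesterol.

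Levels are given in CPM, read counts scaled to a common library total after TMM scaling, and are listed in the order of libraries 1, 2 and 3. Values after ± are SE. A gene is said to have risen, fallen or been called where its adjusted p was under 0.05 in edgeR's quasi-likelihood test with Benjamini-Hochberg adjustment over all genes tested. The 6 libraries held 15917454 to 18998156 counts. Combined library 1 stood apart: on the first principal component, which took 43.3% of the variance of the 6, it lay at 53.6 while the others lay between -23.2 and 3.05. Its deviations followed the GC content of genes, with a Spearman correlation of -0.690 across genes, against -0.255 to 0.218 in the other 5. Macrophage markers were high in sum, at 22116 to 24784 CPM in the IFN-γ libraries and 19238 to 28242 CPM in the combined ones. Lyz2 alone made up most of this, at 17903 to 20668 CPM and 15109 to 23082 CPM. Cd68 and Adgre1 were also abundant. Several others in that list were low or near 0. Timd4 had 0 to 2 reads in each of the 6 libraries. Alox15 was at 0 to 0.340 CPM, and Prg4, Selp, F5, Rarb and Lrg1 at 0.226 to 1.28 CPM. Gata6, the factor of large peritoneal macrophages, was at 11.5 to 16.1 CPM.

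The IFN-γ label could not be seen in its usual targets. Cxcl9 had 0 to 2 reads in each of the 12 libraries, and Nos2 and Cxcl11 had 0 reads in all 12. Gbp2, a guanylate-binding protein, stood at 7.98, 8.48 and 8.76 CPM in the IFN-γ libraries and at 6.78, 7.49 and 6.19 CPM in the controls. The groups did not overlap, but the log2 difference of 0.30 ± 0.17 was not called (edgeR quasi-likelihood test, adjusted p = 0.889). IFN-γ over control gave log2 differences of 0.12 for Irf1 and of -0.72 for Ciita, the master switch of class II genes, with neither called. Only 2 of the 13474 genes (0.0148%) were called between those groups, with 724 (5.37%) at an unadjusted p under 0.05. The group is therefore named below as the libraries labelled IFN-γ, and the directions given are those of Remodelin against its absence in such libraries.

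In the libraries labelled IFN-γ, Remodelin changed 49 of the 13474 genes tested (0.364%), of which 19 rose (0.141%) and 30 fell (0.223%). Rising genes included Mthfd2, Asns, Aldh1l2 and Cth of one-carbon and amino acid metabolism, the NRF2 targets Gsta3 and Gclm, Cox6a2 and Vegfa. Falling genes included 2 of sterol synthesis, 4 of class II antigen presentation, 2 of replication and mitosis, Txnip and Ddit4l, and the mesothelial marker Upk3b. At an unadjusted p under 0.05 there were 2180 genes (16.2%). Log2 fold changes of the called genes ran from -2.88 to 2.21, and the smallest was 0.69 in size. In all 49 the 3 combined libraries lay on one side of the 3 others, which was also true of 27.7% of all genes tested. The median log2 difference over all genes was 0.03, and 53.4% of all genes tested had positive values.

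**Figure D1:**
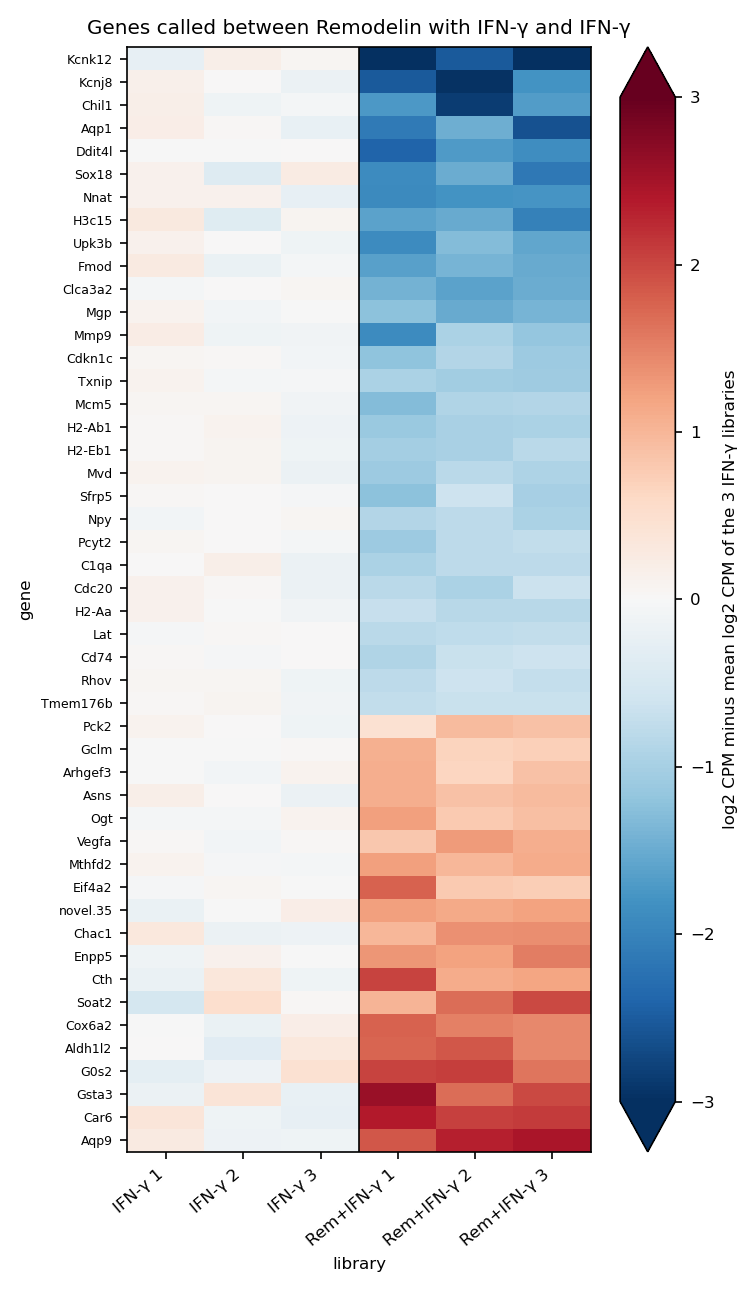
Log2 CPM of the called genes (rows, leaving out 1 that is not reported here) in each of the 6 libraries (columns), as the difference from the mean of the 3 IFN-γ libraries, with colours ending at 3 and -3. The genes that fell are blue and the 19 that rose are red in all 3 combined libraries.

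Combined library 1 was the highest of its group for 11 of the 19 genes that rose and the lowest for 18 of the 30 that fell. Without it 26 genes were called, 20 of them among the 49. All 49 kept their sign, which was fixed in advance because the groups did not overlap in any of them. None of the 49 moved by more than 0.39 on the log2 scale. The count of calls fell by over 1.5 times when any 1 of the 6 compared libraries was left out, to between 10 and 26 genes. Without Remodelin library 1 or control library 1, which enter only through the shared estimate of the spread, it was 144 and 115. In every one of those 6 fits, 8 genes stayed called, among them Mthfd2, Upk3b, Txnip, Ddit4l, Cdkn1c, Mgp and Kcnj8. Called genes that fell had a median GC content of 55.4%, those that rose 48.1% and all genes tested 49.8%. With each library's trend with GC content removed, 39 of the 49 were still called, among 74 calls.

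**Figure D2:**
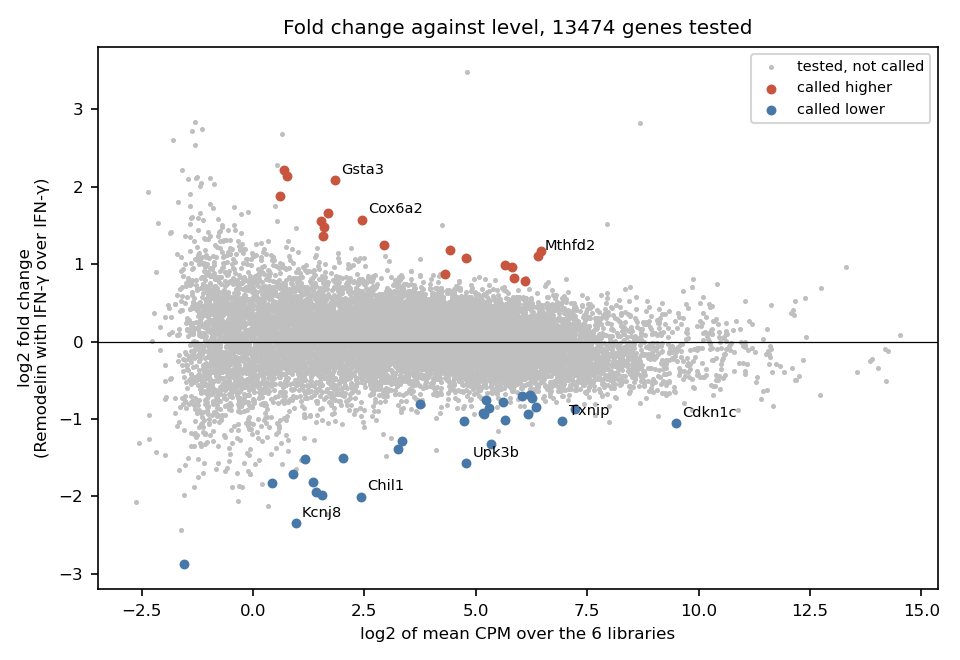
Log2 fold change (vertical axis, Remodelin with IFN-γ over IFN-γ) against the log2 of the mean CPM of the 6 libraries (horizontal axis), with 1 point per gene. The 19 genes called higher and the 30 called lower span low and high levels, and Cdkn1c is the most abundant labelled gene.

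Mthfd2 had the smallest p of all genes. It encodes the mitochondrial one-carbon enzyme methylenetetrahydrofolate dehydrogenase, a target of ATF4 (ENSMUSG00000005667 in the table). Its level was 56.9, 52.0 and 50.9 CPM in the IFN-γ libraries and 125, 106 and 114 CPM in the combined ones. All combined libraries lay far above the others. The log2 fold change was 1.11 ± 0.13 with an adjusted p of 0.00134 (edgeR quasi-likelihood test), and 1.07 ± 0.13 without combined library 1. Asns, asparagine synthetase and another ATF4 target, was at 42.7, 38.2 and 33.8 CPM and then at 81.0, 69.5 and 73.0 CPM. The groups were clearly separate, at a log2 fold change of 0.96 ± 0.15.

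The list of serine, one-carbon and asparagine synthesis had 14 tested members, of which 4 rose and none fell, with a median log2 difference of 0.40 against 0.03 over all genes. Besides Mthfd2 and Asns these were Aldh1l2 and Cth. Aldh1l2, the mitochondrial formyltetrahydrofolate dehydrogenase, stood at 1.53, 1.19 and 1.89 CPM without Remodelin and at 5.06, 5.48 and 4.08 CPM with it. Cth, the cysteine-forming enzyme of transsulfuration, went from 1.36, 1.98 and 1.43 CPM to 6.43, 3.39 and 3.55 CPM. Combined library 1 was well above its group for Cth, whose adjusted p was 0.0476, and 0.167 without that library. Pck2, mitochondrial phosphoenolpyruvate carboxykinase, is not in this list and was named after its value was seen. It rose by 0.78 ± 0.16 on the log2 scale.

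In the integrated stress response list of 17 tested genes, 1 rose and none fell, and the median was 0.34. The one that rose was Chac1, which degrades glutathione. It was at 5.60, 3.96 and 4.06 CPM in the IFN-γ libraries and at 8.99, 11.6 and 11.8 CPM in the combined ones, a log2 fold change of 1.25 ± 0.22. Combined library 1 was the lowest of its group here, and without it the value was 1.39 ± 0.22. Ddit3, the stress factor CHOP, was at 20.2, 16.2 and 19.9 CPM and at 50.7, 31.2 and 35.8 CPM. These did not overlap, yet the adjusted p of 0.0501 missed the threshold, and combined library 1 lay far above the rest. Nupr1 and Trib3, stress-induced regulators, had log2 differences of 1.06 and 0.63, and 4 members of the list were called once the GC trend was removed. Atf4 transcript itself differed by 0.25 ± 0.15 (edgeR adjusted p = 0.406). Values were positive in 17 of 20 cytosolic aminoacyl-tRNA synthetases, against 53.4% of all genes, with a median of 0.26 and 0 calls. Among 14 amino acid transporters none was called and the median was 0.28, or 0.48 without combined library 1. Slc7a11, the cystine importer, differed by 0.80 ± 0.24 and Slc7a5, the leucine importer, by 0.74 ± 0.22.

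Promoters of genes that rose are shown because 4 of the 13 such genes with a promoter in the RefSeq table (30.8%) held TGATGNAA, the core of the composite element bound by ATF4 with C/EBP factors. Either strand was searched, from 250 bases before to 50 after the start. The same motif was in 4.51% of 27025 genes with a promoter in the table and in 0 of 21 genes that fell. Of the 17 stress response genes with a promoter there, 7 held it (41.2%), and of those 7 only Chac1 rose. That list was drawn up from genes of this response, so its share is no result of these data. In the serine, one-carbon and asparagine list, 2 of 13 genes with a promoter held it (15.4%). Genes were counted once, with any of their promoters, and some have several. A match describes letters only and says nothing of binding. The 250 bases before the start follow for each of the 4, written 5′ to 3′ on the gene's strand in build GRCm38.p6, with the match in capitals. They lie at chr6:7693210-7693459 on the minus strand for Asns, chr2:119350992-119351241 on the plus strand for Chac1, chr14:55540016-55540265 on the plus strand for Pck2 and chr9:71162634-71162883 on the minus strand for Aqp9.
Asns: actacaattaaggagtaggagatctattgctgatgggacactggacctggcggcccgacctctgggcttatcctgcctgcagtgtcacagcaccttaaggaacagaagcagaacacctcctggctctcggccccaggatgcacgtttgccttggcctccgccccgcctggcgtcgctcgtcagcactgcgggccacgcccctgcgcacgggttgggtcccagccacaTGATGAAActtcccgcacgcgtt
Chac1: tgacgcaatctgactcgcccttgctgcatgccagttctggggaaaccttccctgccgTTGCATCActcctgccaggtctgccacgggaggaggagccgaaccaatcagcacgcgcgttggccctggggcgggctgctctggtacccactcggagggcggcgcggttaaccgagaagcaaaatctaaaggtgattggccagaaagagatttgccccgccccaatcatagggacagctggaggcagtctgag
Pck2: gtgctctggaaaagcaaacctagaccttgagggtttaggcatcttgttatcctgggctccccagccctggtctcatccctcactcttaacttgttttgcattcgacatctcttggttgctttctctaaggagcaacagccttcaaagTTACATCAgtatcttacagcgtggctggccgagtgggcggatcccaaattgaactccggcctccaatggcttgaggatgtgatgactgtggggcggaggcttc
Aqp9: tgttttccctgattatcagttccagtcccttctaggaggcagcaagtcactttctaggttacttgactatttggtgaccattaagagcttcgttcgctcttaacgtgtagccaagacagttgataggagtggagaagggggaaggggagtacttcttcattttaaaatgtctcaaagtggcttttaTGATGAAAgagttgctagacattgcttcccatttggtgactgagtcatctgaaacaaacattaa
The match begins 23 bases before the start in Asns, 193 before it in Chac1, 103 before it in Pck2 and 64 before it in Aqp9. In Asns and Aqp9 it reads TGATGAAA, while Chac1 and Pck2 carry the reverse complement as TTGCATCA and TTACATCA.

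Enzymes that make or use glutathione were also among the genes that rose. Gsta3, an alpha-class glutathione S-transferase and target of the oxidant sensor NRF2, stood at 1.19, 1.75 and 1.14 CPM and at 7.99, 4.28 and 5.24 CPM. All combined libraries were above, and the log2 fold change was 2.09 ± 0.31 (edgeR adjusted p = 0.00549). Near-identical alpha-class genes could share reads with it. Gclm, the modifier subunit of glutamate-cysteine ligase, was at 40.9, 41.1 and 42.8 CPM against 87.0, 66.4 and 67.7 CPM. Its IFN-γ libraries were almost equal, and the log2 fold change was 0.83 ± 0.15. Over the 22 NRF2 targets tested, 2 rose and none fell. The median was 0.09, with Cat, catalase, at 0.58 ± 0.16 and outside the call. TGACNNNGC, the core of the antioxidant response element, was searched on either strand. It was in a promoter of 4 of the 13 genes that rose and have one (Arhgef3, Asns, Gclm and Gsta3). The share was 14% over all genes in the table, and 2 of 21 genes that fell held it. In the lists of sterol synthesis, stress response, and serine, one-carbon and asparagine synthesis it was 23.5%, 29.4% and 23.1%.

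Vegfa, the vascular growth factor, was at 18.4, 16.8 and 18.3 CPM in the IFN-γ libraries and at 31.2, 43.5 and 37.9 CPM in the combined ones. The groups did not overlap, and the log2 fold change was 1.07 ± 0.17 (edgeR adjusted p = 0.00656). It was the single call, a rise, among 21 genes of hypoxia and glycolysis, whose median was 0.10, or 0.18 without combined library 1. Hif1a differed by 0.55 ± 0.25 and was not called. Cox6a2, a muscle-type subunit of cytochrome c oxidase, rose from 2.72, 2.38 and 3.15 CPM to 9.37, 7.83 and 7.40 CPM, or 1.57 ± 0.24 on the log2 scale. It was likewise the single call among 25 nuclear-encoded respiratory chain genes, of which 18 had negative values, with a median of -0.11, or -0.21 without combined library 1.

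Of the remaining genes that rose, 3 concern lipid and small-molecule handling. Soat2, an acyltransferase that esterifies cholesterol, had 0.962, 1.98 and 1.43 CPM and then 2.81, 4.49 and 5.53 CPM. G0s2, an inhibitor of the triglyceride lipase ATGL, had 0.509, 0.566 and 0.859 CPM and then 2.56, 2.66 and 1.92 CPM. Aqp9, a glycerol and water channel named after its value was seen, had the highest log2 fold change of the called genes, 2.21 ± 0.46, at 0.509 to 0.679 CPM without Remodelin and 2.06 to 3.09 CPM with it. All 3 were low genes whose groups stayed apart. Car6, a secreted carbonic anhydrase, rose by 2.14 ± 0.42 and Enpp5, a membrane phosphodiesterase family member, by 1.36 ± 0.28 on the log2 scale. Ogt, which adds N-acetylglucosamine to proteins, and Arhgef3, a guanine nucleotide exchange factor, rose by 0.99 ± 0.20 and 0.88 ± 0.17. An unannotated locus, also outside the naming rule, rose by 1.18 ± 0.22.

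Eif4a2, a helicase of translation initiation, depended most on 1 library. It was at 52.6, 56.0 and 53.9 CPM in the IFN-γ libraries and at 183, 93.8 and 89.7 CPM in the combined ones. Combined library 1 stood far above its group, and the log2 fold change went from 1.17 ± 0.21 to 0.78 ± 0.13 without it, with an adjusted p of 0.0202 (edgeR).

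**Figure D3:**
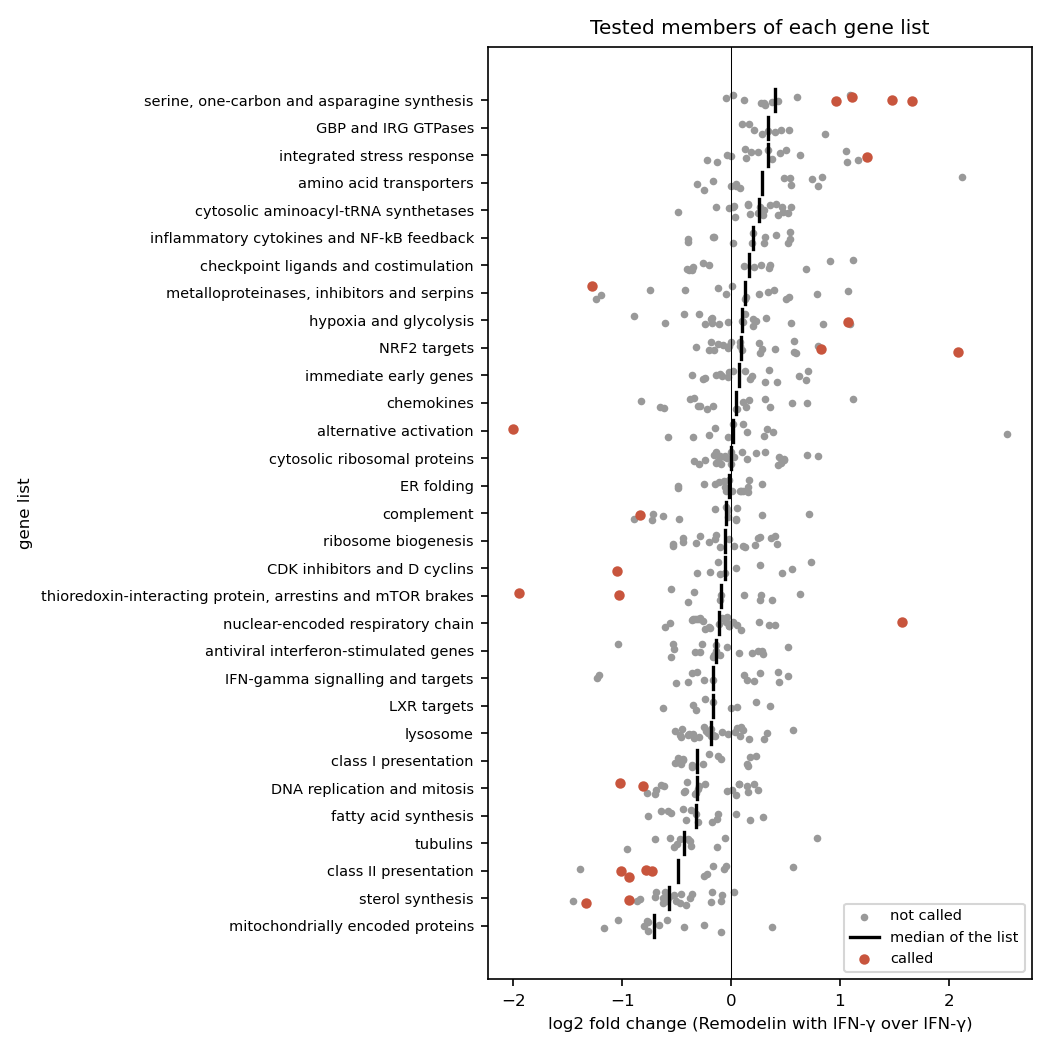
Log2 fold change (horizontal axis, Remodelin with IFN-γ over IFN-γ) of each tested member of the pathway lists with 5 or more tested members (rows), with the list's median as a bar and called genes in red. The serine, one-carbon and asparagine list has the highest median, 0.40, and mitochondrially encoded proteins and sterol synthesis have the lowest, -0.71 and -0.57.

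Cholesterol synthesis lay lower almost throughout. Of 25 sterol synthesis genes tested, 24 had negative values, 2 fell and none rose, with a median log2 difference of -0.57. At an unadjusted p under 0.05, 17 of the 25 were lower, against 9.18% of all genes, and in 20 of the 25 the groups did not overlap in that direction, against 15.6% of all genes. Without combined library 1 the median was -0.50, and with GC trends removed it was -0.54.

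Mvd, mevalonate diphosphate decarboxylase, was at 102, 99.6 and 83.8 CPM and then at 44.6, 54.2 and 50.1 CPM. No library came near the other group. Its log2 fold change was -0.94 ± 0.16, and its adjusted p in edgeR went from 0.0148 to 0.0691 without combined library 1. Mvk, mevalonate kinase, and Acat2, which condenses acetyl-CoA, had -0.84 ± 0.19 and -0.86 ± 0.19 and were not called (edgeR adjusted p = 0.0623 for both).

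Few other lipid genes were called. Pcyt2, the rate-limiting enzyme of phosphatidylethanolamine synthesis from ethanolamine, fell by 0.86 ± 0.16 on the log2 scale, from 52.2, 51.0 and 48.2 CPM to 23.7, 29.4 and 30.5 CPM. Among 15 fatty acid synthesis genes none was called, and the median was -0.32, or -0.15 without combined library 1. Among 9 LXR targets, which respond to oxysterols, none was called and the median was -0.17, or -0.08 without combined library 1 and -0.09 with GC trends removed.
The sterol regulatory element searched as TCACNCCAC on either strand was in a promoter of 1 of the 17 sterol synthesis genes that have one, Hmgcs1, and in 1.44% of all genes in the table.

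Class II presentation was the immune list with the most calls: 4 of 12 tested genes fell and none rose, with a median of -0.49. H2-Ab1, a class II beta chain, had 69.3, 73.0 and 61.4 CPM in the IFN-γ libraries and 31.3, 34.6 and 35.0 CPM in the combined ones. The highest combined library was far below the lowest IFN-γ library, and the log2 fold change was -1.01 ± 0.17 (edgeR adjusted p = 0.0110). H2-Eb1, another beta chain, fell by 0.94 ± 0.16, H2-Aa, an alpha chain, by 0.78 ± 0.16 and Cd74, the invariant chain, by 0.73 ± 0.14 on the log2 scale. Cd74 was at 97.8, 93.2 and 95.9 CPM and then at 51.0, 60.0 and 62.0 CPM. Without combined library 1 none of the 4 was called (edgeR adjusted p = 0.0502, 0.0502, 0.0691 and 0.0616 in the order named), with values from -0.94 to -0.63, and the list's median was -0.26.

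Cells other than macrophages also carry class II. Summed B cell markers were at 71.4 to 83.8 CPM in the IFN-γ libraries and 54.3 to 68.1 CPM in the combined ones, and without Cd22, their most abundant gene, at 24.3 to 27.9 CPM and 14.5 to 17.0 CPM. All 7 tested B cell markers had negative values and none was called, with a median of -0.81. Ighm, the IgM heavy chain, had the smallest p of them, at -0.88 ± 0.20. Dendritic cell markers summed to 19.4 to 21.9 CPM and 14.2 to 16.8 CPM, with Siglech at 0. Batf3 alone made up most of this, at 13.9 to 16.5 CPM and 9.92 to 11.9 CPM. Flt3, Xcr1, Clec9a, Cd209a, Kmo and Itgae were at 0 to 0.630 CPM in the 6 libraries. The part of B cells and dendritic cells in the class II result was not tested. In bulk RNA, fewer cells of a type and less RNA per cell cannot be told apart.

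Other interferon-related lists had no calls. Over 16 class I presentation genes the median was -0.31, or -0.19 with GC trends removed, with H2-D1 at -0.49 ± 0.17. Over 9 guanylate-binding and immunity-related GTPases all values were positive, with a median of 0.34 (0.17 without combined library 1). Gbp2 was at 11.9, 10.4 and 11.1 CPM in the combined libraries against 7.98 to 8.76 CPM in the IFN-γ ones, and its log2 difference of 0.41 ± 0.17 was not called (edgeR adjusted p = 0.260). IFN-γ signalling genes, 15 tested, had a median of -0.16 and antiviral genes, 19 tested, one of -0.14. Without combined library 1 these were -0.10 and -0.08, and with GC trends removed -0.02 and -0.06. Cxcl10 was at 1.70, 2.71 and 2.63 CPM against 0.812, 0.939 and 1.28 CPM. Those groups did not overlap, and the difference of -1.21 ± 0.35 was not called. Cd274, the checkpoint ligand PD-L1, was at 44.9, 45.1 and 50.7 CPM against 67.9, 56.8 and 54.3 CPM. All combined libraries were above, by 0.35 ± 0.16 on the log2 scale (edgeR adjusted p = 0.296).

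Among innate effector genes a few fell. Chil1, a chitinase-like secreted protein, went from 9.74, 7.86 and 8.30 CPM to 2.62, 1.20 and 2.68 CPM, a log2 fold change of -2.00 ± 0.34 (edgeR adjusted p = 0.0148). C1qa, a chain of complement C1q, went from 106, 117 and 91.9 CPM to 54.6, 60.8 and 60.6 CPM. The other chains, C1qb at -0.73 ± 0.18 and C1qc at -0.48 ± 0.15, were not called. Mmp9, gelatinase B, fell by 1.28 ± 0.24 on the log2 scale, and Mmp8, neutrophil collagenase, had -1.20 ± 0.26 and missed the call with an adjusted p of 0.0501 (edgeR). Neutrophil markers summed to 58.3 to 63.6 CPM and 48.5 to 50.4 CPM, with Ly6g at 0 reads. Without Mmp8, which is in that list, they summed to 47.8 to 52.7 CPM and 43.6 to 45.7 CPM. Their part in the values of Mmp8 and Mmp9 was not tested. Tmem176b, a membrane channel of myeloid cells, fell by 0.69 ± 0.14, the smallest change called. Arg1, the arginase of alternatively activated macrophages, differed by 0.38 ± 0.19 and was not called.

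Growth-control genes moved in several ways. Cdkn1c, the CDK inhibitor p57, was the most abundant of the 8 genes called in every leave-one-out fit of the compared groups. It had 999, 990 and 908 CPM in the IFN-γ libraries and 415, 528 and 455 CPM in the combined ones. The fall was 1.05 ± 0.15 on the log2 scale (edgeR adjusted p = 0.00337). Another CDK inhibitor, Cdkn1a, had a positive log2 difference of 0.47 ± 0.14 and was not called. Of 24 replication and mitosis genes 2 fell and none rose, with a median of -0.31. They were Mcm5, a subunit of the replicative helicase, at -1.02 ± 0.18, and Cdc20, an activator of the anaphase-promoting complex, at -0.81 ± 0.17. H3c15, a histone H3 gene with near-identical copies that could share its reads, fell by 1.71 ± 0.35.

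Txnip, which binds thioredoxin and limits glucose uptake, stood at 177, 158 and 159 CPM in the IFN-γ libraries and at 84.7, 79.5 and 78.6 CPM in the combined ones. The combined libraries were close together and far below. The log2 fold change was -1.03 ± 0.13 (edgeR adjusted p = 0.00266). Ddit4l, an inhibitor of mTOR signalling also called REDD2, had 4.25, 4.24 and 4.29 CPM and then 0.812, 1.30 and 1.16 CPM. Its log2 fold change was -1.95 ± 0.27. Of the 12 genes in this list, which also holds arrestin-domain proteins, these 2 fell and none rose. Arrdc4, the nearest relative of Txnip in the list, had -0.39 ± 0.15 and was not called.

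The fixed marker lists of mesothelium and fibroblasts held 1 fallen gene each, Upk3b and Mgp. Upk3b, a uroplakin of mesothelial cells, had 44.8, 41.5 and 37.6 CPM in the IFN-γ libraries and 11.1, 16.6 and 13.9 CPM in the combined ones. The gap between the groups exceeded the spread within either, and the log2 fold change was -1.57 ± 0.19 (edgeR adjusted p = 0.00134). Mgp, matrix Gla protein, had 14.8, 13.0 and 13.7 CPM and then 5.87, 4.80 and 5.24 CPM, a log2 fold change of -1.38 ± 0.20. Among called genes in no marker list, Fmod, fibromodulin of the extracellular matrix, fell by 1.51 ± 0.28 and Sfrp5, a secreted Wnt antagonist, by 0.92 ± 0.16 on the log2 scale. Kcnj8, a subunit of ATP-sensitive potassium channels known from pericytes, had 3.62, 3.28 and 2.86 CPM and then 0.562, 0.418 and 0.932 CPM. Its log2 fold change was -2.35 ± 0.34. Sox18, an endothelial transcription factor, and Aqp1, a water channel of endothelium and mesothelium, fell by 1.82 ± 0.37 and 1.99 ± 0.35.

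Mesothelial markers summed to 128 to 134 CPM in the IFN-γ libraries and 80.8 to 95.8 CPM in the combined ones, and without Upk3b to 89.2 to 90.3 CPM and 69.7 to 79.7 CPM. Of 13 tested, 1 fell and 10 had negative values, with a median of -0.25. The groups did not overlap in 5 that were lower, against 15.6% of all genes tested. They also did not overlap in 2 that were higher, Msln and Krt8, against 12.2% of all genes. Msln was at 0.566 to 0.916 CPM and 1.06 to 1.83 CPM, and Krt8 at 3.57 to 4.30 CPM and 4.93 to 6.05 CPM. Fibroblast markers summed to 929 to 1040 CPM and 752 to 990 CPM, with 1 of 15 called and a median of -0.12 (0.02 without combined library 1). A list of endothelial markers chosen after seeing the data summed to 75.8 to 83.1 CPM and 46.1 to 96.6 CPM. Vwf alone made up most of this, at 70.7 to 78.8 CPM and 44.0 to 92.3 CPM. Kdr was at 3.96 to 4.58 CPM and 1.56 to 3.39 CPM. Pecam1, Cdh5, Tie1 and Cldn5 were at 0 to 0.396 CPM in the 6 libraries, and Emcn was at 0. A list of pericyte markers, also chosen afterwards, summed to 2.00 to 3.11 CPM and 1.62 to 3.03 CPM. The part of these cell types in these falls was not tested. Macrophage markers had 0 calls of 18 and a median of 0.01.

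Other genes that fell belong to none of these groups. Npy, neuropeptide Y, had 185, 196 and 204 CPM and then 106, 113 and 100.3 CPM, a log2 fold change of -0.87 ± 0.13. Nnat, neuronatin of the endoplasmic reticulum, fell by 1.82 ± 0.34 and Clca3a2, of the calcium-activated chloride channel regulators, went from 5.77, 6.05 and 6.30 CPM to 2.25, 1.98 and 2.16 CPM. Lat, a T cell receptor adaptor, and Rhov, a small GTPase, both named after their values were seen, fell by 0.76 ± 0.16 and 0.70 ± 0.15 on the log2 scale. Lat stood at 46.1 to 48.1 CPM and 27.0 to 28.5 CPM, while summed T and NK markers were at 3.39 to 4.75 CPM and 2.56 to 3.90 CPM, with Gzma and Ncr1 at 0. Kcnk12, a potassium channel also named afterwards, rested on few reads, 32 in the IFN-γ libraries together and 4 in the combined ones. The ratio was 7.93-fold lower with Remodelin, with an exact 95% interval of 2.81 to 30.9 that covers counting error only.

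Mitochondrially encoded proteins had the lowest median of the 32 pathway lists, -0.71, with 11 of 12 tested genes negative and none called. mt-Nd4, a complex I subunit, was at 328, 390 and 312 CPM against 140, 225 and 135 CPM, a log2 difference of -1.04 ± 0.32 (edgeR adjusted p = 0.155). The groups did not overlap, and combined library 2 lay nearest to the others. The list's summed level overlapped between the groups, at 6591 to 7604 CPM in the IFN-γ libraries and 5135 to 8539.7 CPM in the combined ones, and its median was -0.53 without combined library 1. In these genes the median of IFN-γ over control was 0.70 and that of Remodelin over control was -0.01. The IFN-γ libraries enter both the first of these and the contrast with the combined group, so those medians are not independent. Tubulins had a median of -0.43 with 11 of 12 negative and none called, and -0.24 with GC trends removed. Ribosomal proteins of the cytosol had a median of 0.00, with 0 of 27 called. The target of the drug and its partner did not differ beyond error: Nat10 was at 17.5, 15.5 and 15.2 CPM against 11.6, 19.4 and 16.7 CPM, and Thumpd1, its adaptor for tRNA, differed by 0.29 ± 0.19. The Nat10 groups overlapped, at a log2 difference of -0.02 ± 0.21.

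Set beside the same contrast without the cytokine, which shares no library with it, the 49 genes had the same sign in 48. The share of all genes tested with the same sign in both was not counted. The Spearman correlation with GC content was 0.123 to 0.550 in the controls and -0.373 to 0.264 with Remodelin alone. In the IFN-γ libraries it was -0.168 to 0.218 and in the combined ones -0.690 to -0.115. The part of GC content in the shared signs was not tested. Remodelin over control called 114 genes (0.846%), 26 higher (0.193%) and 88 lower (0.653%), and 34 genes were called in both. Those are 69.4% of the 49 and 29.8% of the 114. By direction, 10 of the 19 that rose and 24 of the 30 that fell were also called without IFN-γ. Upk3b had -2.03 ± 0.19 there and -1.57 ± 0.19 with IFN-γ, and Txnip -1.08 ± 0.13 and -1.03 ± 0.13. Mthfd2 had 0.81 ± 0.13 there and 1.11 ± 0.13 with IFN-γ. Genes called here and not there included Soat2, Enpp5, Car6, Ogt, C1qa and H3c15, but this is no test of a difference. The size was larger with IFN-γ in 33 of the 49, which were picked for their size with IFN-γ.

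**Figure D4:**
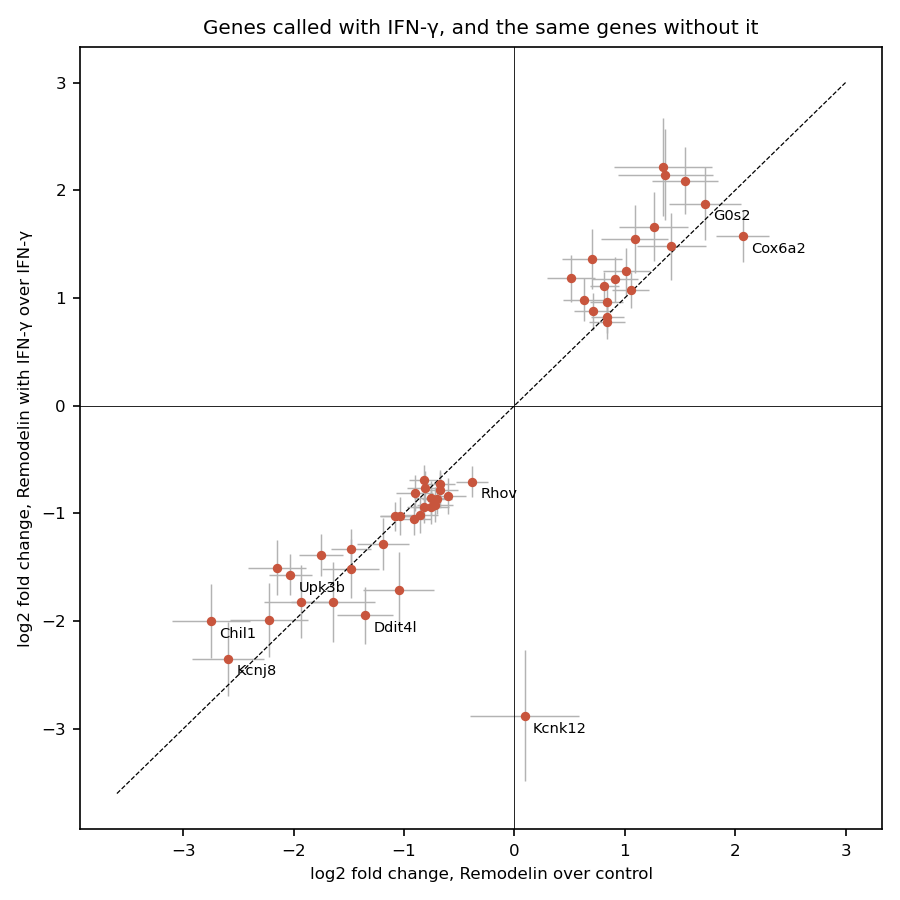
Log2 fold change of Remodelin with IFN-γ over IFN-γ (vertical axis) against Remodelin over control (horizontal axis) for the 49 called genes, with bars of 1 SE and a dashed line of equal values. Of the 49 points, 48 have the same sign on both axes, and Kcnk12, at -2.88 and 0.09, does not.

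The test of the difference itself, the interaction of Remodelin and IFN-γ over all 12 libraries, called 1 of 13474 genes (0.00742%) and none of the 49. At an unadjusted p under 0.05 it gave 310 genes (2.3%), 2 of them among the 49, Kcnk12 and the unannotated locus. For Mthfd2 the interaction was 0.29 ± 0.19 and for Upk3b 0.46 ± 0.26 on the log2 scale. A miss of the threshold does not show that the responses are alike.

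In the authors' deposited table of this comparison, 591 of 20435 genes with an adjusted p (2.89%) were under 0.05, 143 of them higher and 448 lower. Of the 49 genes called here, 32 were among those 591, and all 49 had the same sign in the authors' deposited table. That table rests on the same libraries, and the groups of all 49 did not overlap, so the shared sign is no separate evidence.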

How the data were processed

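Libraries were grouped by their titles, 3 per group. The authors' deposited table gives raw read counts per gene, per the file headers, and these were tested. Its deposited FPKM values and gene lengths were read but entered no result. From the authors' own comparison the deposited log2 changes and p-values were only counted. The submitters' processing notes list CASAVA 1.8, HISAT2 2.0.5 and featureCounts 1.5.0-p3. Build, strand setting and treatment of shared reads were not given in the sources used here, so the table's coordinates are not printed.

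The test was edgeR's quasi-likelihood test (edgeR 4.0.16, R 4.3.3) with TMM scaling, the default filter by group and all 12 libraries in 1 fit with a mean per group. Benjamini-Hochberg adjustment ran over 13474 genes, and an adjusted p under 0.05 was a call. edgeR's common coefficient of variation between libraries of a group, beyond counting error, was 18.6%. The test was checked on simulated data. Alternatives were DESeq2 1.42.0, its size factors in edgeR, limma-voom (limma 3.58.1), no filter, 50 reads in 3 libraries, the compared groups alone, a replicate block, removal of GC trends, and each library left out. Removal of GC and length trends was added after seeing the data.

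Members and 41 gene lists were chosen with earlier results of these data known. Named genes were up to 40 called genes with a mean of at least 1 CPM and an established symbol, up to 4 genes per list by p, 16 listed genes and genes called in the interaction, of which a few are not reported here. Any other gene is said to be named after its value was seen. Lists were described by counts and medians, with no test. Promoters came from RefSeq (GRCm38.p6), and 13 of the 19 genes that rose and 21 of the 30 that fell had one in that table. Without molecular identifiers, reads are not separate molecules, so intervals cover counting error only.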

Additional observations from a re-analysis of the deposited data

Results flagged for a closer look

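For 1 gene the Remodelin effect differed with IFN-γ by the test of the interaction. mt-Tp, the mitochondrial proline tRNA, stood at 49.5, 62.6 and 55.4 CPM in the IFN-γ libraries and at 38.8, 60.0 and 21.3 CPM in the combined ones, so these groups overlapped. In the controls it was at 9.11, 5.54 and 3.69 CPM and with Remodelin alone at 30.6, 33.0 and 36.4 CPM. The log2 difference of Remodelin was -0.48 ± 0.30 with IFN-γ and 2.44 ± 0.32 without it. The difference between these, -2.92 on the log2 scale, was past the threshold in edgeR's quasi-likelihood test and was not called with GC trends removed, with GC and length trends removed or under the filter of 50 reads. It was also lost without any 1 of the 3 IFN-γ libraries, without combined library 1, without Remodelin library 2 or 3, and without control library 2 or 3.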

How the results depend on the processing

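Against 49 called genes, DESeq2 gave 264, no filter 271, GC trends removed 74, GC and length trends removed 386 and the compared groups alone 83. Leaving out 1 library gave 10 to 144. For Remodelin against control (114 genes) the counts in the same order were 269, 283, 191, 407 and 22, and 20 to 216. IFN-γ against control (2 genes) gave 4, 52, 1, 1 and 19, and 1 to 6 with a library left out. It gave 1 with DESeq2 size factors, with limma-voom and with the stricter filter. The interaction (1 gene) gave 19 with no filter. It gave 0 in edgeR after removal of GC trends, after removal of GC and length trends, and under the stricter filter, where 431, 596 and 181 genes had an unadjusted p under 0.05, and 0 to 1 with a library left out. DESeq2 and limma-voom each called 1 there. The interaction could not be fitted on the compared groups alone. The cause of these changes was not tested.

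Deviations of same-numbered IFN-γ and combined libraries from their group means correlated at -0.14, -0.10 and 0.00. Those of differently numbered ones correlated at -0.09 to 0.14. Deviations from a mean of 3 libraries are tied to each other, so these values cannot decide whether replicate numbers pair the libraries. With a replicate block 24 genes were called, 58 for Remodelin against control and 1 for IFN-γ against control, which was also 1 with GC trends removed and the replicate block.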

Other observations

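Cd163, a scavenger receptor for haemoglobin bound to haptoglobin, had 6 reads in the 3 IFN-γ libraries together and 36 in the combined ones, a ratio of 6.05 with an exact 95% interval of 2.53 to 17.6 that covers counting error only. It stood at 0.434 to 0.489 CPM in the controls and 0.404 to 0.751 CPM with Remodelin alone. The gene was not called (edgeR quasi-likelihood test, adjusted p = 0.0619), and its interaction had an unadjusted p of 0.00791.

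Cd36, a receptor for oxidised lipids and a marker of these macrophages, was at 959 to 1066 CPM in the IFN-γ libraries. In the combined ones it was at 2905 CPM in library 1 and at 1097 and 1076 CPM in the other 2. Rpl4, a ribosomal protein, was at 1790.0 CPM in library 1 and at 799.9 and 964 CPM in the other 2.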
